A study of Mus musculus with 20 samples.

Results

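The livers of mice lacking carnitine palmitoyltransferase 2 (Cpt2) were compared with those of floxed control mice after a fast of 24 hours. The comparison used 8 of the 20 bulk RNA-seq libraries of the study, all 4 labelled as liver-specific Cpt2 knockouts (Cpt2KO) and all 4 labelled as Cpt1a/1b/2 triple floxed controls (Control), chosen by their genotype labels. The other groups of 4 were fasted for as long. They lacked Cpt1a and Cpt1b in the liver (Cpt1DKO), all 3 enzymes, or Cpt2 together with Ppara. The Control animals carry floxed Cpt1a, Cpt1b and Cpt2, and the series' design text calls the controls littermates. The labels do not say whether the Cpt2KO animals also carry floxed Cpt1a and Cpt1b, and give neither the Cre driver nor age, sex or strain. Titles number the libraries 1 to 4 within a group, without saying that each number is a separate animal, so p-values measure the spread between these libraries.

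Long-chain fatty acids enter mitochondria as carnitine esters. Cpt1 on the outer membrane makes the acylcarnitine, a carrier takes it across the inner membrane, and Cpt2 turns it back into acyl-CoA for beta-oxidation. In a fasted liver this path feeds ketone body synthesis and supplies energy for gluconeogenesis, while fatty acids that are not burned can be stored in lipid droplets, exported in lipoproteins or act as ligands of the nuclear receptor PPARα. The liver also makes most plasma proteins and carries out urea synthesis, amino acid breakdown and bile acid synthesis.

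Levels are given as counts per 1000000 counted reads (CPM) after correction with edgeR's TMM factors, and values for single libraries are listed in the order of replicates 1 to 4. A gene was called changed at a Benjamini-Hochberg adjusted p under 0.05 in edgeR's quasi-likelihood test, fitted to all 20 libraries. Every adjusted p below comes from that test, and every log2 fold change is Cpt2KO minus Control with its standard error (SE) unless another group is named. For each called gene whose libraries are listed below, the 4 Cpt2KO values lie wholly above or wholly below the 4 Control values unless an overlap is stated. The libraries held 17160129 to 20030055 counts in Control and 14710304 to 19428598 in Cpt2KO. Cpt2KO replicate 3 stood apart by sex: it had 981 CPM of Xist and 2 counts over the Y-linked genes read, while the other 7 libraries had a male pattern. Results that lean on that library are given with and without it. Albumin took 5.07% to 5.88% of all counts in Control and 2.36% to 4.68% in Cpt2KO. Summed plasma protein transcripts, which mark hepatocytes, made up 135699, 166220.0, 155504 and 153917 CPM in Control and 65714, 79623, 87149 and 64628 CPM in Cpt2KO. In bulk tissue, fewer cells of a type and less RNA per cell cannot be told apart, here or in any result below.

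The targeted transcript was lower but present. Cpt2 was at 211, 267, 254 and 266 CPM in the Control libraries and at 116, 165, 114 and 130.5 CPM in the Cpt2KO libraries. The groups did not overlap, and the level fell to 0.527 of Control (log2 fold change -0.92, SE 0.18, adjusted p = 5.3e-04). These counts are summed over the whole gene, and the sources used here do not give the deleted exons, so they do not measure how much intact transcript was left. Cpt1a, the liver form of the outer-membrane enzyme, had 940.1, 1045, 1039 and 1127 CPM in Control and 1452, 1276, 1619 and 1188 CPM in Cpt2KO. All 4 Cpt2KO values lay above all 4 Control values, but the difference was not called (log2 fold change 0.42, SE 0.18, adjusted p = 0.078). It passed the threshold when only these 8 libraries were fitted (adjusted p = 0.024), with DESeq2 (adjusted p = 0.047), with a term for sex (adjusted p = 0.039), with scaling to the total count (adjusted p = 0.0048) and when both libraries with a female pattern were left out (adjusted p = 0.029). Cpt1b, the muscle form, rose from 0.442, 0.675, 0.763 and 0.293 CPM to 3.78, 5.28, 5.10 and 1.499 CPM (log2 fold change 2.86, SE 0.38, adjusted p = 9.4e-06). Per length it stayed far under Cpt1a in Cpt2KO, at 1.15 ± 0.514 against 179.9 ± 24.1 FPKM (fragments per kilobase and depth, mean ± SD, n = 4). Its neighbour Chkb, a choline kinase gene, also rose, from 1.73 ± 0.806 to 4.28 ± 0.857 CPM (adjusted p = 0.0017). With the strand setting of the counting not given, reads of such close neighbours may not be fully separated. Ppara was at 189, 198, 269 and 277 CPM in Control and 333, 175, 344 and 217 CPM in Cpt2KO, with overlapping groups and no call (adjusted p = 0.57).

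**Figure D1:**
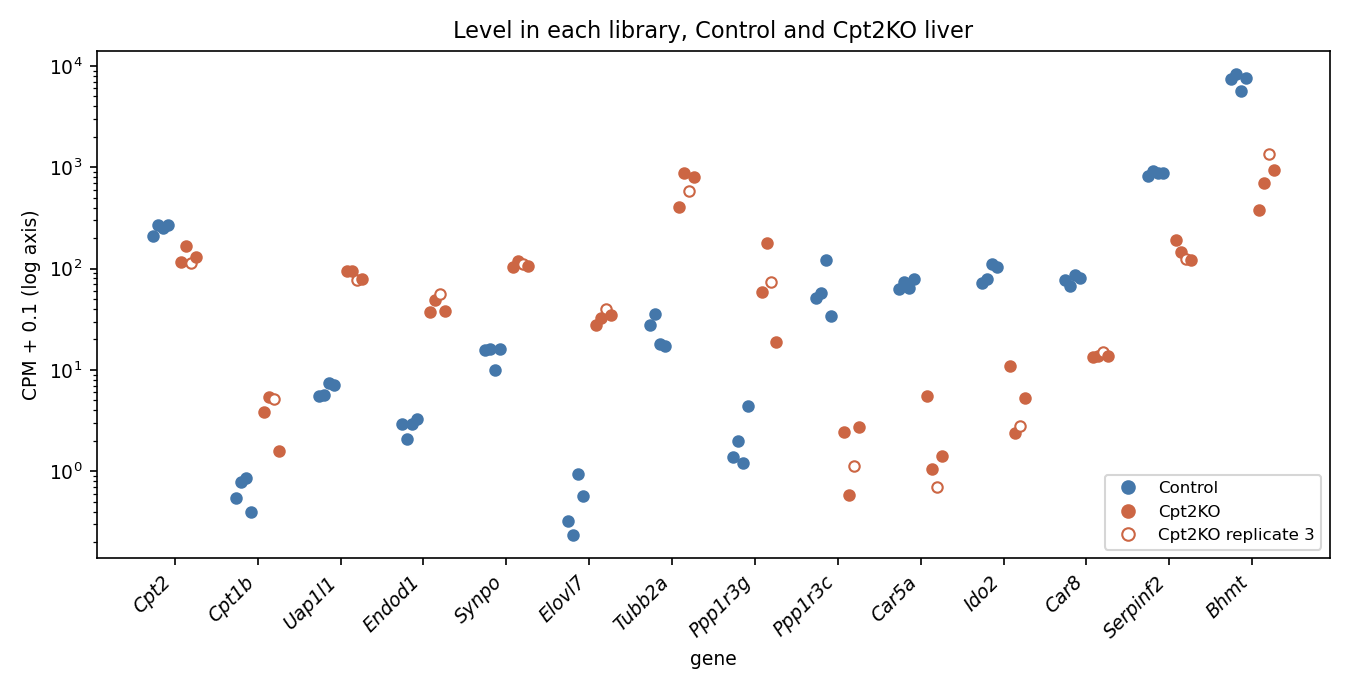
Level of 14 genes in each library, as CPM + 0.1 on a log axis, with Control in blue and Cpt2KO in orange. The open points are Cpt2KO replicate 3, and in these 14 genes the 4 Cpt2KO points lie wholly above or wholly below the 4 Control points.

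Loss of Cpt2 went with changes across much of the liver transcriptome. Of 15669 genes tested, 5228 (33.4%) were called, 2538 higher (16.2%) and 2690 lower (17.2%). Counts of called list members below are to be read beside these shares. Over 2-fold, 858 were higher and 1265 lower, and over 8-fold 124 were higher and 146 lower. The median log2 fold change of all tested genes was -0.01. With scaling to the total count alone that median moved up by 0.207, and 4074 genes were called higher and 1736 lower (70.1% higher, against 48.5% with TMM factors). None of the 5228 calls changed sign with that scaling. All 4 libraries of 1 group lay above all 4 of the other for 4843 genes (30.9%). Control libraries had TMM factors of 0.841 to 0.924 and Cpt2KO libraries of 0.967 to 1.02, so changes are relative to the bulk of genes, and the list counts that the scaling moved most are given under both.

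Uap1l1, Endod1 and Synpo were among the rises with the smallest p-values. Uap1l1, related to the pyrophosphorylase that makes UDP-N-acetylglucosamine, had 5.36, 5.60, 7.28 and 7.02 CPM in Control and 94.1, 94.7, 77.8 and 79.5 CPM in Cpt2KO. The 4 values within each group were close to each other and far from those of the other group (log2 fold change 3.78, SE 0.16, adjusted p = 2.6e-12). Endod1, which encodes a protein with an endonuclease domain, had 2.82, 1.96, 2.84 and 3.16 CPM against 37.5, 48.6, 56.04 and 37.998 CPM (log2 fold change 4.06, SE 0.25, adjusted p = 6.3e-10). Synpo encodes synaptopodin, an actin-binding protein best known from kidney podocytes and neurons. It rose from 15.5, 15.9, 9.92 and 16.04 CPM to 103, 118, 111 and 105 CPM (log2 fold change 2.93, adjusted p = 6.3e-10). The Cpt2KO libraries were alike at 109 ± 6.80 CPM (mean ± SD, n = 4). Among the falls, Car8, a carbonic anhydrase relative without enzyme activity, went from 76.2, 67.5, 86.5 and 81.2 CPM to 13.2, 13.6, 14.8 and 13.6 CPM (log2 fold change -2.49, SE 0.17, adjusted p = 3.7e-09). Serpinf2, the plasmin inhibitor secreted by hepatocytes, went from 826, 919.9, 878 and 872 CPM to 189.7, 146, 124 and 122 CPM (log2 fold change -2.59, adjusted p = 9.1e-09). Sdc2, a cell-surface heparan sulfate proteoglycan, Fam234b and the sulfotransferase Sult1b1 completed the 5 falls with the smallest p, with log2 fold changes of -1.91, -2.01 and -2.46.

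Several of the largest rises were in genes nearly silent in Control. Adra2a, the alpha-2A adrenergic receptor, had 0, 0.135, 0 and 0 CPM in Control and 23.3, 10.9, 26.7 and 5.36 CPM in Cpt2KO (adjusted p = 1.0e-05), and with so few Control reads no fold is given. Lepr, the leptin receptor gene, rose from 11.4, 5.40, 8.25 and 5.97 CPM to 236, 233, 239 and 88.8 CPM (log2 fold change 4.68, adjusted p = 1.1e-04). Cpt2KO replicate 4 was the lowest of its group for both, yet above every Control library. Elovl7, an elongase of long-chain fatty acids, rose from 0.221, 0.135, 0.832 and 0.468 CPM to 27.7, 32.1, 39.9 and 35.1 CPM (log2 fold change 6.35, SE 0.89, adjusted p = 5.3e-05). Cgref1 and Dusp8, a phosphatase that acts on stress-activated MAP kinases, rose (log2 fold changes 4.56 and 4.36). At the other end, Car5a, the mitochondrial carbonic anhydrase that supplies bicarbonate for urea and glucose synthesis, fell from 63.1, 72.8, 63.4 and 78.6 CPM to 5.40, 0.959, 0.597 and 1.33 CPM (log2 fold change -5.12, and -6.17 without Cpt2KO replicate 1, SE 0.69, adjusted p = 3.7e-05). Ido2, which opens the ring of tryptophan, fell from 72.7, 78.4, 111 and 103 CPM to 10.9, 2.29, 2.71 and 5.13 CPM (log2 fold change -4.13, and -4.75 without Cpt2KO replicate 1, adjusted p = 1.4e-05). Map2k6, the kinase upstream of p38, went from 16.3 ± 4.82 to 0.927 ± 0.611 CPM (mean ± SD, n = 4; log2 fold change -4.16), and Car3, a carbonic anhydrase abundant in liver and muscle, went from 319.8 ± 30.6 to 16.6 ± 7.38 CPM (log2 fold change -4.27). Apol7a and Fam47e fell (log2 fold changes -3.93 and -4.27). The major urinary protein genes Mup10 and Mup8, with the largest fitted falls, rest on single Control libraries. Mup10 was at 3.32, 2.77, 985 and 1.64 CPM in Control and 0.405, 0.160, 0.163 and 0.288 CPM in Cpt2KO (adjusted p = 0.043, and 0.51 without Control replicate 3). Mup8 was at 3.26, 1558, 2.57 and 3.98 CPM in Control and 1.08, 0, 0.109 and 2.19 CPM in Cpt2KO (adjusted p = 0.0043, and 0.12 without Control replicate 2). These genes are near copies of each other, so their reads may be shared.

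Genes that handle fatty acids before oxidation moved in both directions, with most called thioesterases higher. Over all genes, 16.2% were called higher and 17.2% lower. Of 21 tested genes of uptake, binding and activation, 7 were higher and 5 lower (median log2 fold change 0.41). Cd36, a fatty acid transporter, rose from 50.8, 29.7, 41.6 and 40.6 CPM to 285, 175, 583 and 136 CPM (log2 fold change 2.86, SE 0.34, adjusted p = 5.1e-06), and the fatty acid binding protein gene Fabp4 from 10.3, 6.08, 8.04 and 5.38 CPM to 32.998, 90.6, 61.9 and 25.6 CPM (log2 fold change 2.82). Cd36 was highest in the female library and Fabp4 in replicate 2. The acyl-CoA synthetases Acsm1 and Acsm5 of medium-chain acids and Acss2 of acetate fell (log2 fold changes -2.16, -1.31 and -1.18). Of 13 tested acyl-CoA thioesterases, which split acyl-CoA into free acid and CoA, 9 were higher and 1 lower (median 1.17). Acot9, a mitochondrial member, rose from 3.59, 3.17, 2.84 and 3.10 CPM to 13.6, 20.2, 9.23 and 23.6 CPM (log2 fold change 2.39, adjusted p = 4.6e-06), and Acot11 was the member that fell (log2 fold change -1.88). In the carnitine system, 4 of 8 genes were higher and 1, Cpt2 itself, lower. Slc22a5, the plasma membrane carnitine transporter, rose from 70.3, 86.7, 94.2 and 88.2 CPM to 234, 301, 294 and 214 CPM, and Crat, the carnitine acetyltransferase, from 112, 126, 117 and 124 CPM to 341, 434, 407 and 266 CPM (log2 fold changes 1.62 and 1.60, adjusted p = 1.6e-07 and 2.4e-06).

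Oxidation genes rose and fell within each compartment. Among 22 enzymes of mitochondrial beta-oxidation 10 were higher and 5 lower (median 0.24). Their summed level, which is weighted to abundant genes, was 6994 ± 707 CPM in Control and 8633 ± 931 CPM in Cpt2KO (mean ± SD, n = 4). Among the rises, Acadl, a long-chain acyl-CoA dehydrogenase, went from 316, 334, 407 and 367 CPM to 534, 744, 731 and 628 CPM (log2 fold change 0.89, SE 0.13, adjusted p = 2.0e-05). Hadhb, the thiolase subunit of the trifunctional protein, rose (log2 fold change 0.83) and Acad12 likewise (log2 fold change 1.31). Pcca, a subunit of propionyl-CoA carboxylase, Mcee, the methylmalonyl-CoA epimerase, and Acad9, which also assembles respiratory complex I, fell (log2 fold changes -0.79, -0.59 and -0.63). In peroxisomes 14 of 35 genes were higher and 9 lower (median 0.22). Their summed level rose from 20589 ± 1788 to 39420 ± 4089 CPM, without overlap between the groups. The thiolase gene Acaa1b rose from 1374, 1775, 1497 and 2184 CPM to 8334, 9709, 6559 and 6789 CPM (log2 fold change 2.20, adjusted p = 8.9e-05). Acox2, the oxidase of branched chains and bile acid intermediates, fell from 260.4, 339, 337 and 299.8 CPM to 119, 100.4, 171 and 152 CPM (log2 fold change -1.19, adjusted p = 6.0e-06), and Phyh, which starts the alpha-oxidation of phytanic acid, fell (log2 fold change -0.97). Of 11 omega-oxidation genes 4 were higher and 4 lower. Their summed level rose from 13775 ± 929 to 23089 ± 1877 CPM, also without overlap. Aldh3a2, the fatty aldehyde dehydrogenase, rose from 596, 653, 723 and 756 CPM to 2705, 2259.8, 2269 and 2138 CPM (log2 fold change 1.78), and the hydroxylase Cyp4f14 fell from 95.1 ± 17.9 to 19.5 ± 4.04 CPM (log2 fold change -2.29). Summed ketone body genes were at 6866 ± 491 CPM in Control and 5552 ± 639 CPM in Cpt2KO. Of 7 ketone body genes 2 were higher and none lower (28.6% called, against 33.4% of all genes), and both are carriers. Slc16a1, which exports ketone bodies and lactate, rose (log2 fold change 1.20, adjusted p = 1.0e-05) and Slc16a6 likewise (log2 fold change 1.16, adjusted p = 0.019, with overlapping groups). That count was 1 without Cpt2KO replicate 3 or 4 and without Control replicate 3 or 4.

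Lipid droplet genes rose, and genes of fatty acid and cholesterol synthesis mostly fell. Of 19 tested lipid droplet genes 12 were higher and none lower, a median of 1.40 against -0.01 for all genes. Over all genes, 16.2% were called higher and 17.2% lower. Plin4, a droplet coat protein, went from 21.1, 23.9, 66.5 and 40.2 CPM to 337, 517, 1196 and 321 CPM (log2 fold change 3.97, SE 0.53, adjusted p = 2.8e-05), and Hilpda, an inhibitor of the lipase Atgl, from 2.65, 2.03, 1.73 and 1.87 CPM to 10.1, 28.5, 22.2 and 17.9 CPM (log2 fold change 3.24, adjusted p = 1.3e-07). For Plin4 the female library, replicate 3, was the highest of the 8. Triglyceride and lipoprotein genes divided evenly, 9 higher and 9 lower of 30 (median -0.01). Apoa4, an apolipoprotein of triglyceride-rich particles, rose from 872, 922, 398 and 434 CPM to 9049.7, 17324, 7883 and 14912 CPM (log2 fold change 4.23, SE 0.37, adjusted p = 8.4e-08), and Gpat3, an acyltransferase that starts triglyceride synthesis, rose (log2 fold change 1.80). Of 15 lipogenesis genes 10 were lower and 2 higher (median -1.23). Acacb, the acetyl-CoA carboxylase whose product inhibits Cpt1, rose from 54.8, 62.4, 48.5 and 63.8 CPM to 303, 275, 291 and 202 CPM (log2 fold change 2.22, SE 0.19, adjusted p = 5.9e-08) and the malic enzyme Me1 likewise (log2 fold change 1.05). Mid1ip1, an activator of acetyl-CoA carboxylase, and Elovl6 fell (log2 fold changes -2.12 and -1.70). None of 24 cholesterol synthesis and uptake genes was higher and 16 were lower (median -0.89), among them Msmo1 (log2 fold change -2.11) and Idi1 (log2 fold change -2.09, and -2.80 without the female library). For Idi1 the groups overlapped, with 12.8, 10.7, 37.2 and 31.95 CPM in Control and 3.04, 2.40, 11.7 and 4.38 CPM in Cpt2KO.

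Genes that set glycogen and glucose traffic moved in opposite directions within families. The Ppp1r3 genes encode the subunits that bring protein phosphatase 1 to glycogen. Ppp1r3c fell from 50.6, 57.1, 120.4 and 34.3 CPM to 2.36, 0.480, 1.03 and 2.65 CPM (log2 fold change -5.35, SE 0.73, adjusted p = 4.4e-05) and Ppp1r3b from 149, 153, 350.2 and 174 CPM to 21.3, 10.02, 22.1 and 10.5 CPM (log2 fold change -3.69, adjusted p = 5.1e-07). Ppp1r3g rose from 1.27, 1.89, 1.11 and 4.33 CPM to 59.05, 179, 73.8 and 18.9 CPM (log2 fold change 5.25, SE 0.95, adjusted p = 5.3e-04). Its Cpt2KO values were widely spread, with replicate 2 the highest and replicate 4 the lowest. The log2 fold change was 4.54 without Cpt2KO replicate 2 and 5.88 without Control replicate 4. Per length the order turned over. In Control, Ppp1r3b and Ppp1r3c were at 32.6 ± 15.3 and 23.6 ± 13.7 FPKM with Ppp1r3g at 0.784 ± 0.546, and in Cpt2KO they were at 2.55 ± 1.04 and 0.595 ± 0.381 with Ppp1r3g at 30.6 ± 25.4. Over the 32 glycolysis and glycogen genes 5 were higher and 7 lower (median 0.10), with 11 higher when counts were scaled to the total. Gckr, the glucokinase regulator, fell from 215, 263, 259 and 249 CPM to 59.7, 36.1, 55.8 and 45.3 CPM (log2 fold change -2.32), and Aldoa, the aldolase of muscle, rose (log2 fold change 1.48). Among 18 gluconeogenic genes 3 were higher and 9 lower (median -0.66). The glucose transporter gene Slc2a2, Fbp1 and the serine dehydratase Sds fell (log2 fold changes -1.86, -1.71 and -2.41). Pck2, the mitochondrial phosphoenolpyruvate carboxykinase, rose from 3.70, 4.46, 6.38 and 4.10 CPM to 17.5, 16.4, 9.23 and 20.1 CPM (log2 fold change 1.77, adjusted p = 0.0074) and the glycerol kinase Gk likewise (log2 fold change 1.05). At pyruvate, 2 of 13 genes were higher and 2 lower: Mpc1, a subunit of the mitochondrial pyruvate carrier, rose from 34.4, 30.9, 45.1 and 41.96 CPM to 57.97, 99.3, 96.4 and 76.1 CPM (log2 fold change 1.11, adjusted p = 2.6e-05), and the kinase genes Pdk1 and Pdk2 fell (log2 fold changes -0.75 and -0.43) while Pdk4 rose (log2 fold change 6.51). The falls at pyruvate were 1 without Cpt2KO replicate 3 or 4 and without Control replicate 1, 2 or 4. Of 19 tricarboxylic acid cycle genes 4 were higher and 3 lower, and the citrate synthase gene Cs rose (log2 fold change 1.04). With total-count scaling these were 8 and 1. The shares called were 37.5% for glycolysis and glycogen, 30.8% at pyruvate and 36.8% for this cycle, near the 33.4% of all genes. Over all 15669 genes, total-count scaling gave 4074 higher and 1736 lower. Ucp3, an uncoupling protein gene of muscle, rose from 0, 0.0675, 0.208 and 0.234 CPM to 4.99, 2.72, 6.03 and 3.29 CPM (log2 fold change 5.02, of uncertain size with so few Control reads), one of 8 rises and 7 falls among 27 mitochondrial carriers.

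Genes of the integrated stress response, in which the transcription factor ATF4 is translated when the initiation factor eIF2α is phosphorylated, rose. Of 26 tested members 17 were higher and none lower (median 0.82), against 16.2% of all genes called higher. Slc7a11, the cystine transporter, had no read in the 4 Control libraries and 4.39, 2.34, 0 and 4.32 CPM in Cpt2KO (adjusted p = 0.0082). Taking 3 counts over the 4 Control libraries as the floor, its mean was at least 59.4-fold higher, and the female library, replicate 3, had no read of it either, so the groups overlapped at 0. Nupr1, which encodes a small chromatin-binding protein induced by stress, rose from 0.442, 0.945, 0.416 and 0.410 CPM to 15.8, 31.3, 3.91 and 35.8 CPM (log2 fold change 5.30, SE 0.80, adjusted p = 1.1e-04). Replicate 3, the female library, was the lowest of the Cpt2KO libraries but above every Control library. The hormone gene Fgf21 had 2.65, 3.58, 6.03 and 1.52 CPM in Control and 52.2, 73.8, 65.6 and 108 CPM in Cpt2KO, with the groups far apart (log2 fold change 4.46). Vldlr, a lipoprotein receptor, went from 3.15, 2.57, 4.16 and 6.26 CPM to 11.7, 8.53, 22.05 and 6.23 CPM with overlapping groups (log2 fold change 1.58, adjusted p = 0.0031). The promoters of these 4 genes are shown because each holds the composite element of ATF4, TGATGCAA on either strand (TTGCATCA when read on the other). They are the 250 bases before the start site in the RefSeq table for GRCm38.p6, 5′ to 3′ on the gene's strand, with the element in capitals. This build is not the GRCm39 of the deposited counts, and the genes were matched by symbol.
Fgf21, minus strand, chr7:45615491-45615740: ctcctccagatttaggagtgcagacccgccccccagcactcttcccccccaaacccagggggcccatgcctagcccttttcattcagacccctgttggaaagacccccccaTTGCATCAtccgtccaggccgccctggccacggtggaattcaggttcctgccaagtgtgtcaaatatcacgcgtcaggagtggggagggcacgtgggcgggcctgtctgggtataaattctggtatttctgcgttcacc
Nupr1, minus strand, chr7:126625471-126625720: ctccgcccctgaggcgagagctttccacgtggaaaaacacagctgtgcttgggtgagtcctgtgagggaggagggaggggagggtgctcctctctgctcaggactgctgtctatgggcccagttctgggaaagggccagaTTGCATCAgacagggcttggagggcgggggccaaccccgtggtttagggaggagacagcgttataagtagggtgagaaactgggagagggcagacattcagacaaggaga
Slc7a11, minus strand, chr3:50443614-50443863: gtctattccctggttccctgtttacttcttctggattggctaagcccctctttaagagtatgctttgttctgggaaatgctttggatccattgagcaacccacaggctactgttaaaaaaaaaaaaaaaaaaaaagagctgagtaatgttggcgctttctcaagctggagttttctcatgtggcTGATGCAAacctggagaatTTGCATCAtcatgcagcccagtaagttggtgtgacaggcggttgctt
Vldlr, plus strand, chr19:27216770-27217019: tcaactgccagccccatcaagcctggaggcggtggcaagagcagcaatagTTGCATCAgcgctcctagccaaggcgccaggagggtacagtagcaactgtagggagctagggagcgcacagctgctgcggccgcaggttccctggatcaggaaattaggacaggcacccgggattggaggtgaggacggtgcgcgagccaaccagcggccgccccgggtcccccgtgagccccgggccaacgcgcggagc

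The element started 139 bases before the start site in Fgf21, 110 in Nupr1 and 200 in Vldlr, and Slc7a11 held it at both 66 and 47 bases, once on each strand. In 300-base windows around all start sites of the table, 0.895% of 32851 promoters held TGATGCAA on either strand. Of 23 stress response members with a promoter entry 8 held it: Atf3, Chac1, Nupr1, Fgf21, Vldlr and Slc7a11, which rose, and Aars and Herpud1, which were not called. The list was written from known ATF4 targets, so this share describes the list. Over all tested genes with a promoter, it was in 1.13% of those called higher, 0.662% of those called lower and 0.826% of all. The direct repeat bound by PPARα with its partner RXR, searched on both strands, was in 0.0396% of all promoters. Over tested genes with a promoter it was in 0.0636%, in 3 of 1865 called higher (0.161%) and in none of 1965 called lower. These matches are too few to compare the shares. A match says only that the letters are there.

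Serine and folate genes moved both ways. Psat1, an enzyme of serine synthesis, rose from 0.8293, 1.01, 0.624 and 0.644 CPM to 12.2, 9.70, 6.84 and 12.4 CPM (log2 fold change 3.71, SE 0.68, adjusted p = 4.6e-04). The mitochondrial folate enzymes Mthfd2 and Mthfd1l rose (log2 fold changes 2.96 and 1.43). Cytosolic folate enzymes fell. Aldh1l1, which oxidises formyl-tetrahydrofolate, went from 985, 1282, 1218 and 1156 CPM to 233, 219.8, 231 and 239.8 CPM (log2 fold change -2.33, adjusted p = 1.9e-05), and Mthfd1 and Shmt1 changed (log2 fold changes -1.30 and -0.98). In all, 3 of 13 genes of this list were higher and 4 lower, against 16.2% and 17.2% of all genes. Of 25 targets of the oxidant-responsive factor NRF2, 10 were higher and 3 lower (median 0.42), with Slc7a11 on both lists. Cbr3, a carbonyl reductase, rose from 0.387, 0.473, 0.971 and 1.23 CPM to 20.99, 16.1, 2.01 and 13.4 CPM (log2 fold change 4.09) and the glutathione transferase gene Gsta1 likewise (log2 fold change 3.98, 3.26 without Cpt2KO replicate 4 and 4.63 without Control replicate 3), while Gsta4 fell (log2 fold change -1.81). Cbr3 too was lowest in the female library among the Cpt2KO libraries. The antioxidant genes Nqo1 and Gclc were not called (log2 fold changes 0.42 and 0.54).

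Chaperone genes of the endoplasmic reticulum fell, while ribosomal protein and proteasome genes rose. None of 21 endoplasmic reticulum chaperone and unfolded protein genes was higher and 13 were lower (median -0.68). Their summed level was 5147, 6002, 6060.4 and 5463 CPM in Control and 3490.2, 3493, 4526 and 3924 CPM in Cpt2KO, without overlap. Sdf2l1, Edem1 and Hyou1, which fold or clear secretory proteins, fell (log2 fold changes -1.52, -1.32 and -1.11). Edem1 went from 158, 168, 184 and 170.2 CPM to 79.3, 55.5, 71.3 and 67.5 CPM (SE 0.12, adjusted p = 8.9e-08). Of 50 cytosolic ribosomal protein genes 45 were higher and none lower (median 0.68, range 0.10 to 1.27), against 16.2% of all genes called higher. Summed, they made up 9736, 9301, 11502 and 10217 CPM in Control and 12293, 21969, 15611 and 15879.6 CPM in Cpt2KO, and replicate 2 was the highest. Rpl12 rose from 116, 109, 147 and 119 CPM to 203, 419, 271 and 292 CPM (log2 fold change 1.27, SE 0.18, adjusted p = 1.5e-05). Rpl30 and Rpl10a rose (log2 fold changes 1.11 and 1.08). These genes have many processed pseudogenes, among which reads may be shared. Of 31 proteasome subunit genes 18 were higher and none lower (median 0.41). Psmd8, a subunit of the regulatory cap, rose from 118, 134, 131 and 128 CPM to 288, 503, 323 and 480.3 CPM (log2 fold change 1.64, adjusted p = 2.8e-06) and Psmd4, a ubiquitin receptor likewise (log2 fold change 1.31). The proteasome count leaned on single libraries: it was 9 without Cpt2KO replicate 2, 11 without Control replicate 1, and 31 with total-count scaling. Of 48 genes of the respiratory chain and ATP synthase 2 were higher (Cycs and Ndufs7) and 2 lower (Sdha and Ndufs8), with a median of 0.06. With total-count scaling 22 of these were higher. Without Cpt2KO replicate 1, 6 were higher, and without Cpt2KO replicate 2, 4 were lower.

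**Figure D2:**
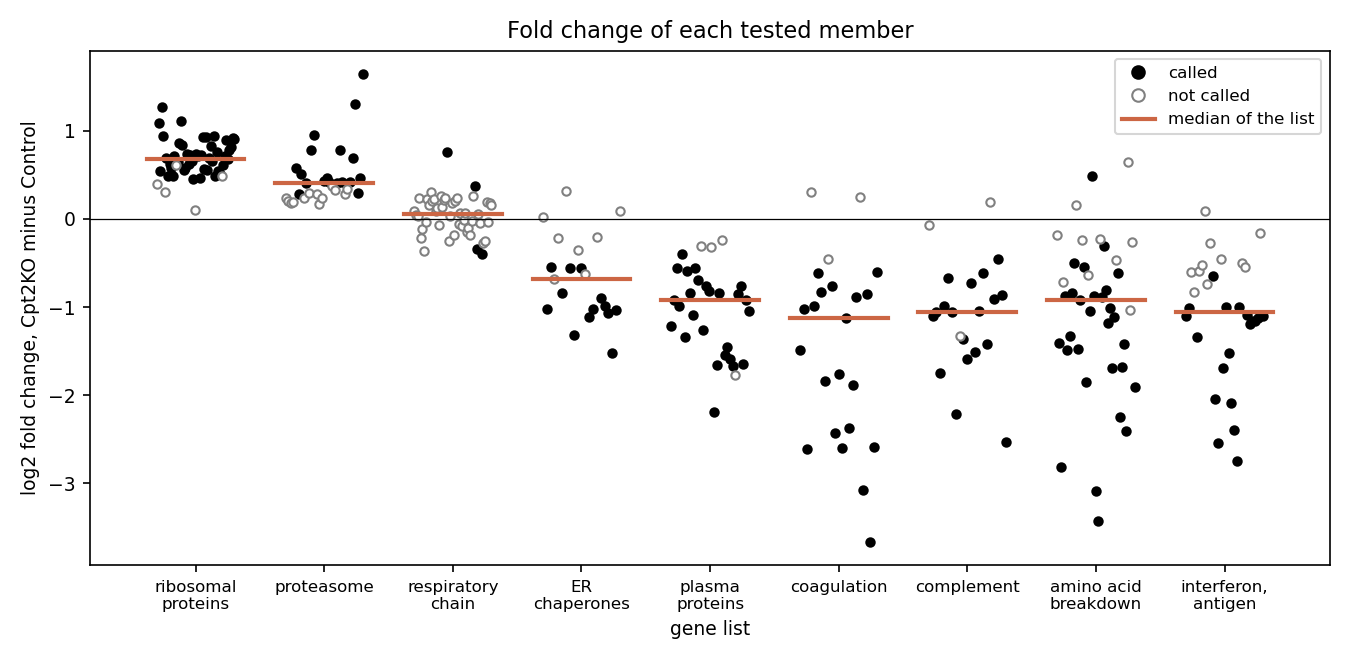
Log2 fold change of every tested member of 9 gene lists, with called genes filled, genes that were not called open and the list's median as an orange line. Horizontal position within a list has no meaning, and ribosomal protein genes lie above 0 while coagulation and complement genes lie mostly below it.

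Tubulin genes, which build microtubules, also rose, with 7 of 12 higher and 1 lower (median 0.96), against 16.2% and 17.2% of all genes. Tubb2a, a beta-tubulin, rose from 27.6, 35.5, 17.8 and 16.9 CPM to 405, 886, 588 and 807 CPM (log2 fold change 4.78, SE 0.46, adjusted p = 9.5e-07). Tubb2b rose from 0.166, 0.203, 0 and 0.117 CPM to 17.5, 40.5, 16.4 and 14.1 CPM (log2 fold change 7.41, of uncertain size with so few Control reads), and Tubb4b likewise (log2 fold change 1.30). In Control, Tubb4b was the most abundant of these per length, at 42.5 ± 5.97 FPKM against 14.9 ± 5.34 for Tubb2a, and in Cpt2KO Tubb2a led with 415 ± 136 FPKM against 106 ± 28.03. Tubb2a and Tubb2b are near copies, so the split of reads between them is uncertain. The gamma-tubulin gene Tubg1 was the member that fell (log2 fold change -0.59).

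Genes of secreted plasma proteins fell widely. Of 30 plasma protein genes 26 were lower and none higher (median -0.92), of 23 coagulation genes 20 were lower and none higher (median -1.12), and of 21 complement genes 18 were lower and none higher (median -1.06), against 17.2% of all genes called lower. Summed plasma protein transcripts, given above, did not overlap between the groups. Summed complement transcripts took 11632, 15018, 15916 and 14898 CPM in Control and 9484, 6706, 9213 and 6098 CPM in Cpt2KO. Summed coagulation transcripts took 16237, 19252, 20619 and 18883 CPM in Control and 7636, 7021, 7755 and 5624 CPM in Cpt2KO, and no Cpt2KO library came near the lowest Control library. Serpind1, heparin cofactor II, fell from 450.3, 519, 528 and 489 CPM to 70.1, 29.4, 35.02 and 22.8 CPM (log2 fold change -3.66, SE 0.44, adjusted p = 1.0e-05). Replicate 1 kept the most of it among the Cpt2KO libraries. Proz, which helps inhibit factor X, fell from 314, 338, 398 and 373 CPM to 68.02, 26.1, 38.01 and 36.4 CPM (log2 fold change -3.08), and F11, coagulation factor XI likewise (log2 fold change -2.61). Mbl2, a lectin that starts the complement cascade, fell from 173, 203, 311 and 229 CPM to 47.2, 22.97, 50.2 and 37.8 CPM (log2 fold change -2.53, SE 0.25, adjusted p = 5.7e-07), C4bp, an inhibitor of it likewise (log2 fold change -2.22) and C1s1 likewise (log2 fold change -1.75). Among the carriers and protease inhibitors, the transferrin gene Trf went from 11969.7, 13515, 13869 and 11940.4 CPM to 3974, 4417, 4036 and 3975 CPM (log2 fold change -1.64, adjusted p = 1.1e-06) and the macroglobulin gene Mug1 changed (log2 fold change -2.19). Of 22 acute phase genes 10 were lower and 2 higher. Saa4, a constitutive serum amyloid A, fell from 185, 201, 301 and 201 CPM to 15.99, 4.80, 6.84 and 5.82 CPM (log2 fold change -4.74), while Orm2, an orosomucoid, rose from 6.36, 5.67, 5.34 and 5.56 CPM to 26.9, 31.97, 19.9 and 94.9 CPM (log2 fold change 2.92, adjusted p = 4.9e-04). Orm2 was highest in Cpt2KO replicate 4, without which the log2 fold change was 2.20, and its near copies make its counts uncertain.

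**Figure D3:**
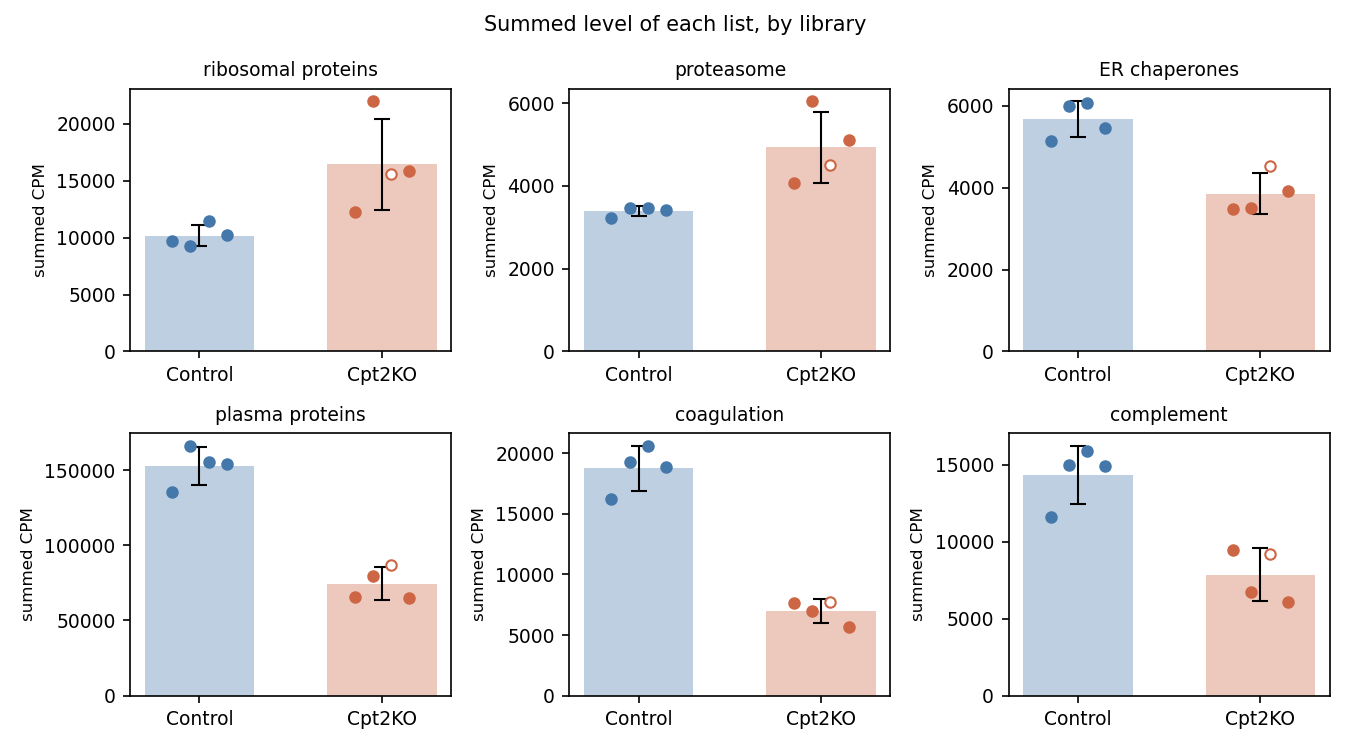
Summed CPM of 6 gene lists, with bars for the mean of 4 libraries, error bars of 1 SD and a point for each library (the open point is Cpt2KO replicate 3). Cpt2KO points lie above all Control points for ribosomal proteins and the proteasome and below them for the other 4 lists.

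Genes of amino acid and nitrogen metabolism also fell. Of 39 genes of amino acid breakdown 28 were lower and 1 higher (median -0.93), against 17.2% of all genes called lower. Hal, the histidine ammonia-lyase, went from 1019, 1179.8, 569 and 812 CPM to 127, 63.3, 104 and 39.4 CPM (log2 fold change -3.42, SE 0.61, adjusted p = 3.9e-04). Haao and Afmid, enzymes of the tryptophan to NAD path, fell (log2 fold changes -3.09 and -2.82), and Acmsd, which diverts that path likewise (log2 fold change -3.46). The member that rose was Gpt2, the mitochondrial alanine aminotransferase, from 966, 1115, 1187 and 1034 CPM to 1221, 1596, 1758 and 1447 CPM (log2 fold change 0.49, adjusted p = 0.0054). Of 13 genes of the urea cycle and ammonia disposal 11 were lower and none higher (median -0.80). Otc, which makes citrulline, went from 377, 394, 355 and 373 CPM to 83.6, 38.2, 73.5 and 81.3 CPM (log2 fold change -2.44, adjusted p = 2.7e-05). Glul, glutamine synthetase, went from 1344, 1310.2, 1230.0 and 1195 CPM to 368, 174, 582 and 176 CPM (log2 fold change -1.97, SE 0.28), with the female library the highest of the 4. Cps1, which makes carbamoyl phosphate, and Arg1, the arginase, were the 2 that were not called: Cps1 had 5483, 8142, 7546 and 6936 CPM in Control and 6388, 5238, 8613 and 6700.3 CPM in Cpt2KO (log2 fold change -0.06, adjusted p = 0.87), and Arg1 a log2 fold change of 0.07 (SE 0.22, adjusted p = 0.85). Of 17 methionine and transsulfuration genes 11 were lower and 1 higher. Bhmt, which remethylates homocysteine with betaine, fell from 7468, 8349, 5630.2 and 7588 CPM to 381, 700.4, 1357 and 934 CPM (log2 fold change -3.11, SE 0.36, adjusted p = 3.0e-06), and Gnmt, the main methyl group sink of the liver likewise (log2 fold change -2.13).

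Bile acid, drug-metabolising and zonal genes fell. Of 24 bile acid genes 14 were lower and 1 higher (median -0.97), against 17.2% of all genes called lower. Nr0b2, the small heterodimer partner that represses bile acid synthesis, fell from 41.96, 37.2, 39.5 and 20.7 CPM to 3.98, 0.426, 0.217 and 0.115 CPM (log2 fold change -4.96, and -7.05 without Cpt2KO replicate 1, SE 0.87, adjusted p = 3.7e-04), and its activator Nr1h4, the bile acid receptor FXR, was not called (log2 fold change -0.12). Akr1c6 fell (log2 fold change -3.72, and -4.35 without Cpt2KO replicate 1), and the phospholipid exporter Abcb4 rose (log2 fold change 0.51). Of 35 cytochromes P450 of families 1 to 3, 25 were lower and 1 higher (median -1.29). Cyp2f2 fell from 748, 858, 743 and 784 CPM to 164, 40.02, 43.4 and 87.1 CPM (log2 fold change -3.23, adjusted p = 2.2e-05) and Cyp2c54 likewise (log2 fold change -4.34), although reads of Cyp2c genes may be shared among copies. Aox3, an aldehyde oxidase, fell from 486, 646, 549 and 535 CPM to 68.97, 8.05, 14.1 and 17.4 CPM (log2 fold change -4.36, and -5.39 without Cpt2KO replicate 1). Replicate 1 was again the highest of the Cpt2KO libraries for both. The single rise was Cyp2a4, with 3.17, 28.6, 145 and 0.692 CPM in Cpt2KO and 1.22, 0.405, 0.416 and 2.69 CPM in Control, with overlapping groups. It was highest in the female library and was not called without it (adjusted p = 0.036 with and 0.17 without Cpt2KO replicate 3). Of 23 glucuronosyl and sulfotransferases 12 were lower and 1 higher (median -0.90), and the rise, Ugt1a1, was not called without the female library (adjusted p = 0.029 with and 0.12 without Cpt2KO replicate 3), with a term for sex (adjusted p = 0.0615), or without Control replicate 1 or 2. Markers of both liver zones fell. Of 14 periportal genes 11 were lower and 1 higher (median -1.74), and of 16 pericentral genes 13 were lower and none higher (median -1.54), among them Gulo (log2 fold change -2.64), Rgn (log2 fold change -2.49) and Slc13a3 (log2 fold change -2.38). Axin2, a target of the Wnt signal that marks the pericentral zone, was not called (log2 fold change 0.59, adjusted p = 0.16).

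**Figure D4:**
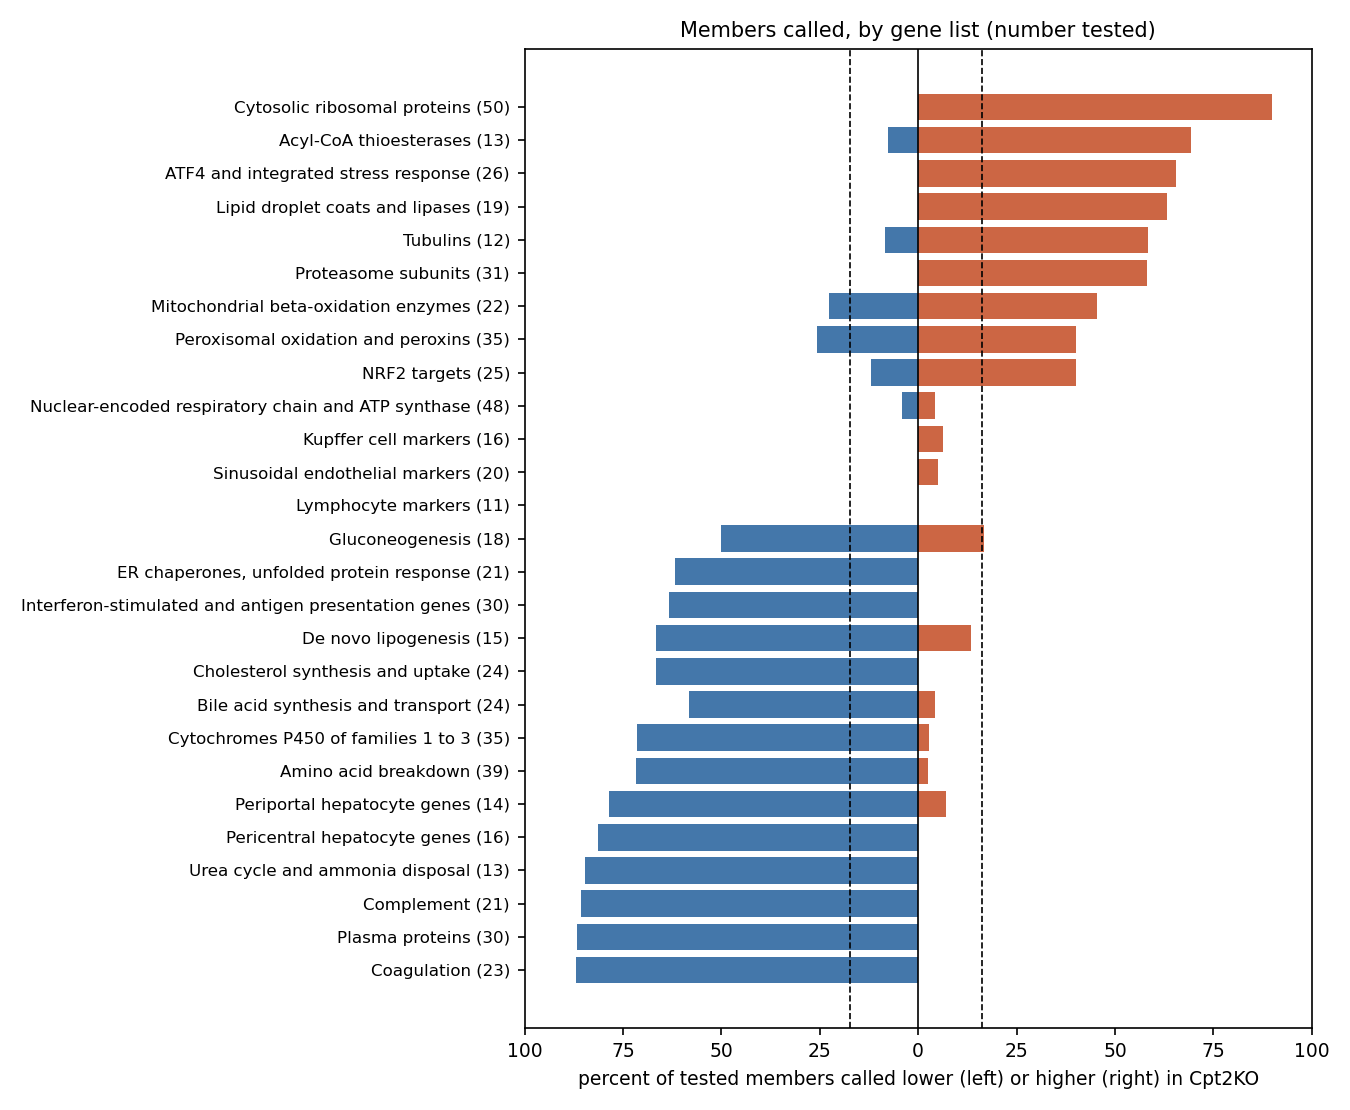
Percent of tested members of 27 gene lists called higher (orange, to the right) or lower (blue, to the left) in Cpt2KO, with the number tested in brackets. Dashed lines mark the share of all genes, 16.2% higher and 17.2% lower, and the list of coagulation genes, with 20 of 23 lower, is at the foot.

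Called transcription factors were mostly lower. Of 33 nuclear receptors 3 were higher and 10 lower, and of 25 hepatocyte factors none was higher and 8 were lower, beside 16.2% of all genes called higher and 17.2% called lower. With total-count scaling 5 nuclear receptors were higher and 6 lower, and 5 hepatocyte factors were lower. The hepatocyte factor count was 5 without Cpt2KO replicate 2, without Cpt2KO replicate 4, without Control replicate 1 and without Control replicate 4. Pparg, the fat-cell relative of PPARα, rose from 9.23, 8.57, 8.74 and 7.72 CPM to 22.9, 22.7, 21.3 and 26.2 CPM (log2 fold change 1.44, SE 0.18, adjusted p = 4.5e-06). The estrogen receptor gene Esr1 fell from 23.3, 22.7, 30.2 and 18.96 CPM to 8.10, 5.91, 11.1 and 10.6 CPM (log2 fold change -1.41, adjusted p = 2.1e-05) and Klf15, a regulator of amino acid breakdown and gluconeogenesis likewise (log2 fold change -1.34). Hnf4a, which defines hepatocytes, was not called (log2 fold change -0.10, adjusted p = 0.64). Of 18 clock genes 5 were lower, including Hlf (log2 fold change -1.19) and Nfil3 (log2 fold change -1.40). Of 28 hormone and binding protein genes 7 were higher and 11 lower. The corticosteroid carrier Serpina6, the hepcidin Hamp2 and Enho, which encodes adropin, fell (log2 fold changes -3.53, -3.29 and -3.28). Without the female library, Hamp2 had a log2 fold change of -4.01. The rises were 4 without Cpt2KO replicate 2. Of 25 immediate early and MAP kinase phosphatase genes 10 were higher and 3 lower, led by Dusp8 and Klf6 (log2 fold change 3.06), and the falls were 1 in fits that left out Control replicate 1, 2 or 3.

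Genes of the interferon response and of antigen presentation fell. Of 30 tested, 19 were lower and none higher (median -1.05), against 17.2% of all genes called lower. Mx2, an antiviral GTPase, went from 9.57, 13.2, 8.598 and 5.74 CPM to 2.50, 0.959, 0.869 and 1.27 CPM (log2 fold change -2.75, SE 0.39, adjusted p = 2.1e-05). Ifit1 went from 16.2, 16.1, 11.7 and 10.5 CPM to 2.83, 1.86, 1.85 and 2.83 CPM (log2 fold change -2.55, adjusted p = 4.4e-06), and Mx1 changed (log2 fold change -2.40). Few markers of immune and vascular cells were called: 6.25% of Kupffer cell and 5% of sinusoidal endothelial markers, against 33.4% of all genes. Summed Kupffer cell markers were at 865, 705, 637 and 530.3 CPM in Control and 738, 450.2, 857 and 487 CPM in Cpt2KO, overlapping, with 1 of 16 higher (Id3, log2 fold change 1.24) and none lower. Clec4f, a lectin that defines Kupffer cells, had 122, 98.4, 91.5 and 70.2 CPM in Control and 106, 79.8, 101 and 53.8 CPM in Cpt2KO (log2 fold change -0.17, adjusted p = 0.58). Of 20 sinusoidal endothelial markers 1 was higher, the Wnt enhancer Rspo3 (log2 fold change 1.01), 2 were higher without Cpt2KO replicate 1 and 4 without Control replicate 1. None of 11 lymphocyte markers and none of 8 tested monocyte and neutrophil markers was called at an adjusted p under 0.05 in edgeR's test, or at an unadjusted p under 0.05, where the count was 0 for both lists. DESeq2 and limma-voom also called none, and 2 of the latter list were lower when both female libraries of the study were left out. Summed lymphocyte markers were at 17.8, 11.8, 16.2 and 8.19 CPM and 10.7, 9.01, 20.4 and 10.1 CPM.

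Markers of lipid-laden macrophages moved unevenly. Of 17 tested, 9 were higher and 1 lower (median 0.70). Gpnmb, a glycoprotein of phagocytes, had 0.387, 0.540, 0.0693 and 0 CPM in Control and 57.02, 38.8, 27.6 and 28.4 CPM in Cpt2KO, and Cd63, a lysosomal tetraspanin, 5.14, 3.38, 3.88 and 3.69 CPM and 43.5, 50.1, 45.9 and 54.9 CPM (log2 fold changes 7.22 and 3.59, adjusted p = 9.8e-09 and 1.8e-06). The log2 fold change of Gpnmb was 7.85 without Control replicate 2, and its size is uncertain with so few Control reads. The receptor Trem2, Itgax and Mmp12, which define these macrophages, were low and not called. Trem2 had 0.995, 0.608, 0.277 and 0.527 CPM in Control and 1.62, 1.23, 0.489 and 0.461 CPM in Cpt2KO, Itgax 1.05, 0.270, 1.25 and 0.527 and 1.21, 1.23, 1.30 and 0.288 CPM, and Mmp12 0.166, 0.135, 0.555 and 0.410 and 0.877, 0.426, 0.271 and 0.231 CPM, all with overlapping groups. Spp1 fell from 23.8 ± 2.53 to 8.599 ± 2.86 CPM (log2 fold change -1.47). Plin2 and the cathepsins on this list are also made by hepatocytes, and which cells the rises came from was not tested. Of 36 lysosome and autophagy genes 12 were higher (19 with total-count scaling) and 4 lower, with Sqstm1 (log2 fold change 1.43) and the acid lipase gene Lipa (log2 fold change 1.09) leading. Of 25 stellate cell and matrix genes 5 were higher and 1, the fibronectin gene Fn1, lower (log2 fold change -1.44, adjusted p = 5.7e-06). That is 24% called, against 33.4% of all genes. The rises were 3 without the female library and 10 with total-count scaling. Col1a1 and Acta2 were not called (-0.35 and 0.09). Of 12 bile duct markers 4 were lower and 1 higher (Krt23, log2 fold change 2.29, and 3.05 without Control replicate 4), with 2 lower without Cpt2KO replicate 2 or 4 and without Control replicate 1 or 4. Of 14 chemokines 5 were lower and none higher (35.7% called, near the share of all genes), with 3 lower without Cpt2KO replicate 3 or 4. Red cell transcripts summed to 236, 157, 121 and 265 CPM in Control and 286, 441, 163 and 548 CPM in Cpt2KO. They are given as a measure of blood in the sample, whose part in the results was not tested. Of 22 heart and muscle genes 5 were expressed enough to test, and Fabp3, the heart fatty acid binding protein, rose from 0.0553, 0.0675, 0.0693 and 0.234 CPM to 26.3, 13.001, 28.2 and 13.6 CPM (log2 fold change 7.46, and 8.20 without Control replicate 4). With so few Control reads of Fabp3, the size of that fold is uncertain.

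Counts of sex-biased genes moved with the female library and with other settings. Of 13 tested female-biased genes 2 were higher and 1 lower with all 4, and none was higher and 4 lower without replicate 3. Of 20 male-biased genes 4 were lower with all 4 and 2 without Cpt2KO replicate 3 or 2. With all 4, 23.1% of the female-biased and 20% of the male-biased genes were called, under the 33.4% of all genes. Of all genes 17.2% were called lower. With a term for sex in the model, 9 male-biased genes were lower. Summed male-biased transcripts were at 33629, 34120.2, 28029 and 28783 CPM in Control and 15766, 8789.8, 2227 and 20242 CPM in Cpt2KO. The 3 male Cpt2KO libraries lay below every Control library, and the female library was lower still. Over all genes, 5183 were called without replicate 3 and 5059 with the sex term, and 4640 and 4716 of the 5228 main calls were among them.

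Among long noncoding RNAs, 148 of 1501 tested were higher and 244 lower (26.1% called, against 33.4% of all genes). Snhg10, a small nucleolar RNA host gene, rose from 0.498, 0.203, 0.416 and 0.293 CPM to 21.3, 34.7, 3.04 and 25.8 CPM (log2 fold change 5.87, SE 0.74, adjusted p = 1.4e-05), lowest in replicate 3. Gm2990 had no read in the 4 Control libraries and 2.83, 3.14, 0.706 and 6.11 CPM in Cpt2KO, at least 68.7-fold higher against a floor of 3 counts over the 4 Control libraries. Hectd2os, antisense to Hectd2, fell from 7.19, 6.95, 4.92 and 6.20 CPM to 0, 0, 0.217 and 0 CPM (adjusted p = 2.1e-04), with no fold given because 3 of the 4 Cpt2KO libraries had no read of it, and B430119L08Rik from 24.9, 32.3, 14.5 and 30.8 CPM to 1.08, 0.586, 0.217 and 0.231 CPM (log2 fold change -5.63). Around the floxed genes, 6 genes were higher and 3 lower of 28 tested within 1 Mb of Cpt2, 6 and 7 of 39 around Cpt1a, and 7 and 6 of 34 around Cpt1b. The shares called are near the 33.4% of all genes.

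Cpt1 acts before Cpt2 in the shuttle, and the comparison with Cpt1DKO livers asks where loss of Cpt2 differs from loss of Cpt1. Against the Cpt1DKO livers, 2212 genes (14.1%) differed in Cpt2KO, 1161 higher (7.41%) and 1051 lower (6.71%). The genes below were chosen after their values were seen. This comparison shares its Cpt2KO libraries with the one above, and its count was 1192 without Cpt2KO replicate 2, 1435 without Cpt1DKO replicate 1 and 1337 without Cpt1DKO replicate 4. Endod1 was at 2.70 ± 0.516 CPM in Control, 2.91 ± 0.152 in Cpt1DKO and 45.04 ± 8.94 in Cpt2KO (mean ± SD, n = 4), a log2 difference of 3.95 between the knockouts (SE 0.25, adjusted p = 2.4e-09). Nupr1 was at 0.657 ± 0.193 CPM in Cpt1DKO and 21.7 ± 14.6 in Cpt2KO (log2 difference 5.003, adjusted p = 7.3e-04). Fabp3, Cd63 and Pparg were also higher in Cpt2KO than in Cpt1DKO, by 6.33, 2.72 and 1.27 on the log2 scale (adjusted p = 6.0e-05, 1.2e-04 and 1.3e-04). Fabp3 had few reads in Cpt1DKO, so the size of its difference is uncertain. Bhmt was at 6386 ± 1095 CPM in Cpt1DKO, against 7259 ± 1154 CPM in Control, and at 843 ± 411 CPM in Cpt2KO (log2 difference -2.92, SE 0.36, adjusted p = 5.9e-05). Glul and Serpinf2 stood in the same order, with differences between the knockouts of -1.81 and -2.12 (adjusted p = 3.3e-04 and 5.9e-07). Uap1l1 and Synpo took intermediate levels in Cpt1DKO, 17.4 ± 2.44 and 32.1 ± 7.14 CPM, and differed from Cpt2KO by 2.31 and 1.77 (adjusted p = 3.5e-09 and 2.2e-06). For some genes no difference between the knockouts was called. Mid1ip1 was at 4.82 ± 1.52 CPM in Cpt1DKO and 4.89 ± 1.53 in Cpt2KO (log2 difference 0.02, SE 0.24, adjusted p = 0.97), and Dusp8 at 15.9 ± 11.5 and 24.1 ± 9.64 CPM (log2 difference 0.59, SE 0.48, adjusted p = 0.45). Lepr differed by 1.02 (SE 0.60, adjusted p = 0.28) with a wide spread in Cpt1DKO. A p above the threshold does not show that the knockouts are alike.

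**Figure D5:**
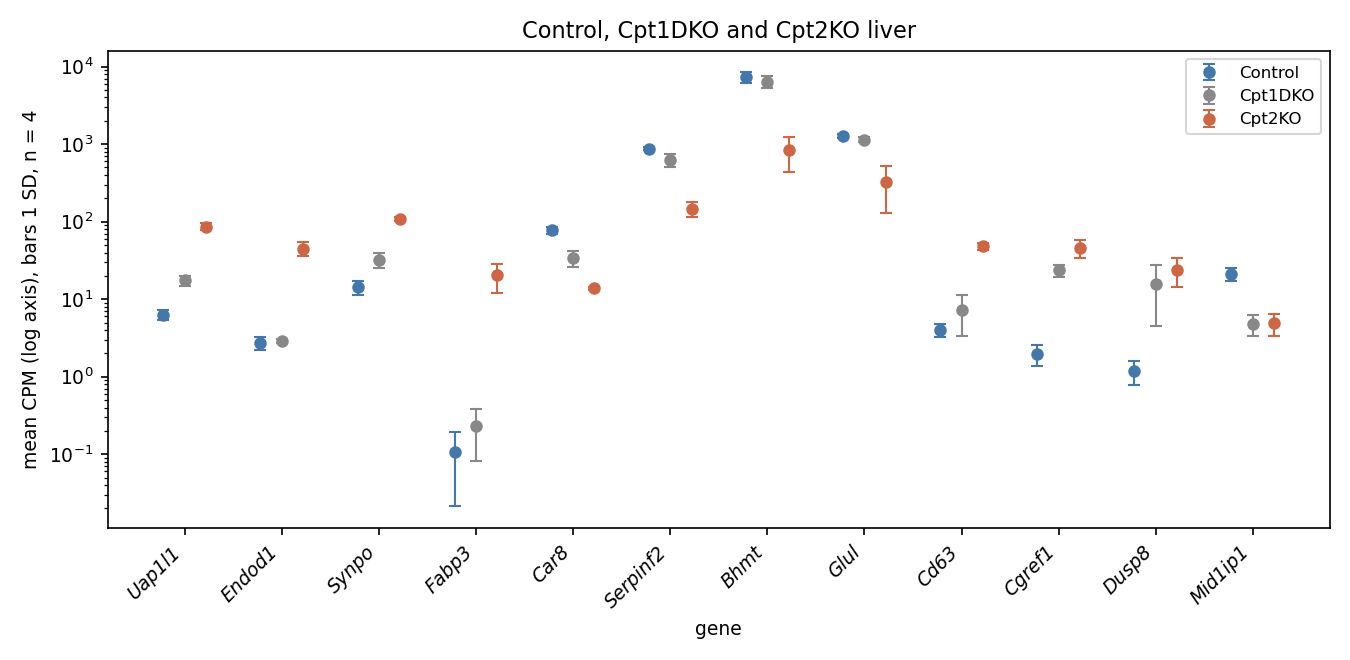
Mean CPM of 12 genes in Control (blue), Cpt1DKO (grey) and Cpt2KO (orange) on a log axis, with bars of 1 SD over 4 libraries. Endod1, Bhmt and Glul in Cpt1DKO lie near Control, and Mid1ip1 in Cpt1DKO lies near Cpt2KO.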

How the data were processed

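Total RNA of mouse liver was sequenced in bulk. The deposited table holds whole-number counts per gene and FPKM, made by the authors per the file headers, and reads were aligned with HISAT2 to GRCm39, per the submitters' processing notes. The sources used here name neither the program that counted reads nor its strand option nor the gene annotation. The authors' deposited comparison table gives log2 fold changes and p-values per its file headers. It called 2447 genes higher and 2481 lower in Cpt2KO, and 4520 of the 5228 calls made here were shared with it. No per-sample column was left without a sample (0).

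Counts of 15669 genes kept by edgeR's filterByExpr (minimum count 10), of 31344 with any count, were scaled with TMM factors and fitted with edgeR 4.0.16 (R 4.3.3, limma 3.58.1) over all 20 libraries of 5 groups. Alternatives were fitted with DESeq2 1.42.0, limma-voom, other scalings, filters, a term for sex and libraries left out, and leaving out both female libraries was chosen after seeing the data. On simulated counts of 15317 genes, 200 were changed, drawn from well-expressed genes with as many raised as lowered. Of those changed by 1 on the log2 scale 85% were recovered, and of those changed by 2, 98%, with 14 false calls. In the data 33.4% of genes were called, many at low levels, and TMM factors differed between the groups. The simulation did not copy these features, so its rates may not hold for this comparison. FPKM was used only to compare levels between genes. Replicates of a group differed by more than sampling noise (chi-square per degree of freedom of at least 18.49).

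Genes were named by a rule: the targeted genes, the 15 largest rises and falls, those with the smallest p, and in each of 65 lists the 3 largest called changes each way above a mean of 1 CPM. Other genes were chosen after their values were seen. The members and lists were chosen with earlier results of these data known. Reads may be shared in the Mup, Cyp2c, Cyp4a, Saa, Orm, Gsta, Acot and tubulin families and among ribosomal protein pseudogenes. Promoters came from a RefSeq table, in which 238 of 305 named genes were found. Some genes covered by the naming rule are not reported here.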

Additional observations from a re-analysis of the deposited data

Results flagged for a closer look

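Dixon's gap test at 95% was run on 314 groups of 4 libraries, over 158 of the genes described here. In 24 groups (7.64%) the highest or lowest library lay apart from the other 3. Mup10, Mup8 and Xist were not among the 158, though a single library stood far apart in each, as given above. For normally distributed values chance gives about 1 in 20 groups, a rate that may not hold for these counts. Where all libraries but 1 are at 0, the test finds an outlier whatever that library holds. This was so for Adra2a in Control and Hectd2os in Cpt2KO. No explanation for the outliers was tested. Control replicate 1 was the lowest with 512 CPM for Sdha (the others 588 to 599.7) and 2262 CPM for Serpina1d (the others 2582 to 2613). Control replicate 2 was the highest with 0.135 CPM for Adra2a (the others 0) and 0.945 CPM for Nupr1 (the others 0.410 to 0.442). Control replicate 3 was the highest with 205 CPM for Sdc2 (the others 181 to 183), 301 CPM for Saa4 (the others 185 to 201), 13.4 CPM for Pdk4 (the others 6.08 to 7.24), 350.2 CPM for Ppp1r3b (the others 149 to 174) and 11.9 CPM for Saa3 (the others 6.55 to 7.13). Control replicate 3 was the lowest with 9.92 CPM for Synpo (the others 15.5 to 16.04). Control replicate 4 was the highest with 0.234 CPM for Fabp3 (the others 0.0553 to 0.0693) and 27.4 CPM for Mid1ip1 (the others 18.7 to 19.8). Cpt2KO replicate 1 was the highest with 5.40 CPM for Car5a (the others 0.597 to 1.33), 68.97 CPM for Aox3 (the others 8.05 to 17.4), 3.98 CPM for Nr0b2 (the others 0.115 to 0.426), 65.7 CPM for Pcca (the others 47.5 to 49.1) and 1.08 CPM for Mx1 (the others 0.404 to 0.489). Cpt2KO replicate 2 was the highest with 40.5 CPM for Tubb2b (the others 14.1 to 17.5) and 4417 CPM for Trf (the others 3974 to 4036). Cpt2KO replicate 2 was the lowest with 13.4 CPM for Cyp4f14 (the others 21.2 to 21.9). Cpt2KO replicate 3 was the highest with 0.217 CPM for Hectd2os (the others 0). Cpt2KO replicate 4 was the highest with 94.9 CPM for Orm2 (the others 19.9 to 31.97). Cpt2KO replicate 4 was the lowest with 88.8 CPM for Lepr (the others 233 to 239) and 6.29 CPM for Elovl6 (the others 12.98 to 14.1). These counts by library were 2, 2, 6 and 2 for Control replicates 1 to 4 and 5, 3, 1 and 3 for Cpt2KO replicates 1 to 4.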

How the results depend on the processing

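With scaling to the total count, 4074 genes were called higher and 1736 lower, and the median of all genes moved by 0.207 on the log2 scale. Requiring a log2 fold change above 1 left 2123 genes, 858 higher and 1265 lower. Leaving out 1 library at a time gave 4347 to 5183 genes called, 2090 to 2665 higher and 2194 to 2635 lower. Against Cpt1DKO the same gave 1192 to 2517 called, 641 to 1364 higher and 551 to 1153 lower, lowest without Cpt2KO replicate 2. The other settings gave 4574 to 5692 calls against Control, from the fit of 8 libraries alone to the fit without both female libraries (added after seeing the data). No gene called against Control changed sign in any setting fitted. With the replicate block 5050 genes were called against Control and 2081 against Cpt1DKO. No pairing by number was visible. The correlations of deviations for the same number were 0.066, -0.062, 0.082 and -0.037, and for different numbers they ran from -0.204 to 0.125. With 4 libraries per group this check cannot exclude pairing. Depth limits the genes below about 1 CPM, where a library holds few counts.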

Other observations

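Iron handling and small cofactor pathways were measured in the same libraries. Of 19 iron and metallothionein genes 3 were higher and 5 lower (median log2 fold change 0.03). The ferritin light chain gene Ftl1 had 1243, 1329.9, 1361 and 1227 CPM in Control and 2753, 3056, 1679 and 3109 CPM in Cpt2KO (log2 fold change 1.04, adjusted p = 9.7e-05 in edgeR's quasi-likelihood test with Benjamini-Hochberg adjustment). Of 22 genes of NAD metabolism 8 were lower and none higher, and 5 were lower without Control replicate 3. Of 15 genes of coenzyme A synthesis and turnover 3 were higher and none lower. Ppcs, which joins phosphopantothenate to cysteine, had 27.1, 27.6, 28.6 and 29.1 CPM in Control and 82.5, 102, 58.9 and 61.2 CPM in Cpt2KO (log2 fold change 1.44, adjusted p = 3.7e-07). Of 9 genes that elongate and desaturate polyunsaturated fatty acids 2 were higher and 1 lower, with 4 higher under total-count scaling. Over all tested genes 16.2% were called higher and 17.2% lower.

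Of 15 genes of the mitochondrial stress response 4 were higher and 1 lower, and 2 were higher without Cpt2KO replicate 2. The fall, Sod2 (log2 fold change -0.26, adjusted p = 0.043 in edgeR's test), was called in 1 of 8 fits that left out a library, the one without Cpt2KO replicate 2. Of 20 p53 and growth arrest targets 6 were higher and 2 lower, and none was lower without Cpt2KO replicate 2 or 4 or without Control replicate 1, 2 or 4. Of 23 cell cycle genes 3 were higher and 3 lower. These shares stand beside 16.2% of all tested genes called higher and 17.2% called lower.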
